A study of Mus musculus with 13 samples.

Results

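Acute myeloid leukaemia (AML) of mice that overexpressed N-Myc was compared, as a genome, with the empty control of the same series. The AML library was made from Mac1+Gr1+GFP+ bone marrow cells of C57BL/6 mice, labelled 8 to 10 weeks, from 2000000 frozen cells. The empty control library came from 1000000 frozen GFP+ bone marrow cells of the same strain and age label, with no sort for Mac1 or Gr1. N-Myc was delivered by a retrovirus, and the labels do not say what the control cells received in its place or how many mice gave cells. Both libraries had fragments of 350 bp read as pairs of 150 bp at a planned depth of 30x. A call was a single nucleotide variant (SNV) or a short insertion or deletion (INDEL), keyed by chromosome, position and both alleles. Members were AML calls on chromosomes 1 to 19 with 10 or more reads, a quality of 100 or more, 4 or more reads of the alternative allele (0.2 or more of the reads), no segmental duplication and no counterpart in the control, however shallow. That gave 1700 SNV members of 76836 distinct autosomal SNVs in the 7 libraries with files, and 6677 INDEL members of 439768. All 246 copy number rows of AML were members too, of 1626 rows in the 6 libraries whose copy number table was used.

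N-Myc, encoded by Mycn, is a transcription factor of the Myc family that drives growth and division. Acute myeloid leukaemia is a cancer of blood progenitors that keep features of granulocytes and monocytes, and Mac1 (encoded by Itgam and Itgb2) and Gr1 (an epitope of Ly6g and Ly6c) are surface markers of those cells. Genome sequence shows which variants and copy number changes a cell population carries, and it holds no measure of surface proteins, so the sort could not be checked against marker levels. The germline of inbred mice matches the reference closely, but not at every base. No matched normal DNA of the AML mice is named in the labels, so inherited and acquired variants cannot be told apart in any count below.

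Each group had 1 library, so no difference between groups could be set against a spread of replicates, and groups were not tested. Intervals in parentheses are exact 95% intervals (Poisson for counts, Clopper-Pearson for shares). They hold for counting error alone, because 1 library per group shows no spread between libraries. They also take calls and reads as independent. PCR copies of a molecule were not marked by identifiers, and 391 of the 1700 SNV members lay within 1 kb of the previous one. The intervals can therefore be too narrow. The SNV table of AML held 43570 calls and that of the control 36461. Calls went down to 2 reads in AML, but the control table, like those of both MPAL fractions (mixed-phenotype leukaemia), held no call under 5 reads. The labels describe the control together with the MPAL fractions, and AML together with B-ALL, T-ALL and AUL (the B-cell, T-cell and undifferentiated leukaemias). Library handling and the leukaemia therefore cannot be told apart in the contrast with the control. A site without a control call carries no control depth in the files, so a missing call is not a measured reference genotype.

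AML carried more calls that the control lacked than the control carried that AML lacked. The 2 directions were not judged alike. AML kept 1363 SNV and 16037 INDEL calls under 5 reads, over all chromosomes, and the control 0. A control call could thus be matched by a shallow AML call, while the reverse could not occur, which can raise both ratios below. No alternative evened this out, and its size was not tested. Of 9629 autosomal AML SNVs that passed the depth, quality, share and duplication rules, 1700 (1620 to 1783) had no call in the control, 17.7% of them. In the other direction 701 (650 to 755) of 7777 control SNVs had no call in AML, 9.01%. The ratio of both counts was 2.43, and it lay between 1.81 and 3.92 over the alternatives tried. For INDELs, 6677 (6518 to 6839) of 14767 AML calls had no control call (45.2%), against 4520 (4389 to 4654) of 11787 control calls without an AML call (38.3%). The INDEL ratio of 1.48 fell to 1.11 with at least 20 reads and rose to 3.88 with a quality of at least 200. Of the AML INDEL members, 1042 (15.6%) stood at a position where the control had another INDEL allele. Among the SNV members this held for 2. By the same rule the other leukaemias had from 1653 (B-ALL) to 5249 (AUL) SNVs without a control call, so the AML count of 1700 was close to that of B-ALL and below the other 4.

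The quality rule set the size of the set most. A further 2672 AML SNVs without a control call failed it alone, with qualities up to 99, and 1444 lay in a segmental duplication alone. Depth alone removed 514, with 9 reads at most, and the allele share alone removed 16, the highest at 0.198. For INDELs quality alone removed 45425.

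Of the 1700 AML SNV members, 1328 were also called in B-ALL at some depth (78.1%, 76.1 to 80.1). With a quality of at least 20 in place of 100 this share was 49.9%, and with at least 200 it was 87.7%. T-ALL called 881 (51.8%), AUL 796 (46.8%), T-MPAL 701 (41.2%) and M-MPAL 681 (40.1%). These 5 comparisons share the AML library and the control, so they are given side by side only. Among members called in exactly 1 other leukaemia, B-ALL held 388 (350 to 429). T-ALL held 16, AUL 20 (12.2 to 30.9), and M-MPAL and T-MPAL 9 each (4.12 to 17.1). A further 382 members were called in all 5 other leukaemias, and 207 (180 to 237) in AML alone. The tables of AML, B-ALL, T-ALL and AUL all keep calls under 5 reads, and without such calls in B-ALL the share also called there was 77.2%. For INDELs, B-ALL called 2938 of the 6677 (44.0%, 42.8 to 45.2) and T-ALL 2279 (34.1%). Of INDEL members, 1852 were called in AML alone and 858 in AML and B-ALL alone, while T-ALL alone shared 370.

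The 3 classes of SNV members differed in their allele shares. SNVs of AML alone had a median share of 0.429 (quartiles 0.366 and 0.532) at a median depth of 21 reads. Those of AML and B-ALL alone had a median of 0.473 (0.411 and 0.538) at 26 reads, and 261 of 388 (67.3%, 62.4 to 71.9) lay from 0.4 to 0.6. A heterozygous variant in every cell would fall in that band, but whether these variants were in every cell was not tested. SNVs also called in other leukaemias had a median of 0.588, and 293 of 1105 (26.5%, 23.9 to 29.2) had no reference read. The control SNVs that no other library called, 193 by the same rule, had a lower median share of 0.325. The public variant list dbSNP (build 142, per the file headers) held 12.6% (9.49 to 16.4) of the AML and B-ALL class, 23.7% (18.1 to 30.1) of the class of AML alone and 62.3% (59.3 to 65.1) of the SNVs seen in other leukaemias. Of AML SNVs that passed the rules and were called in the control too, it held 80.8%.

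**Figure D1:**
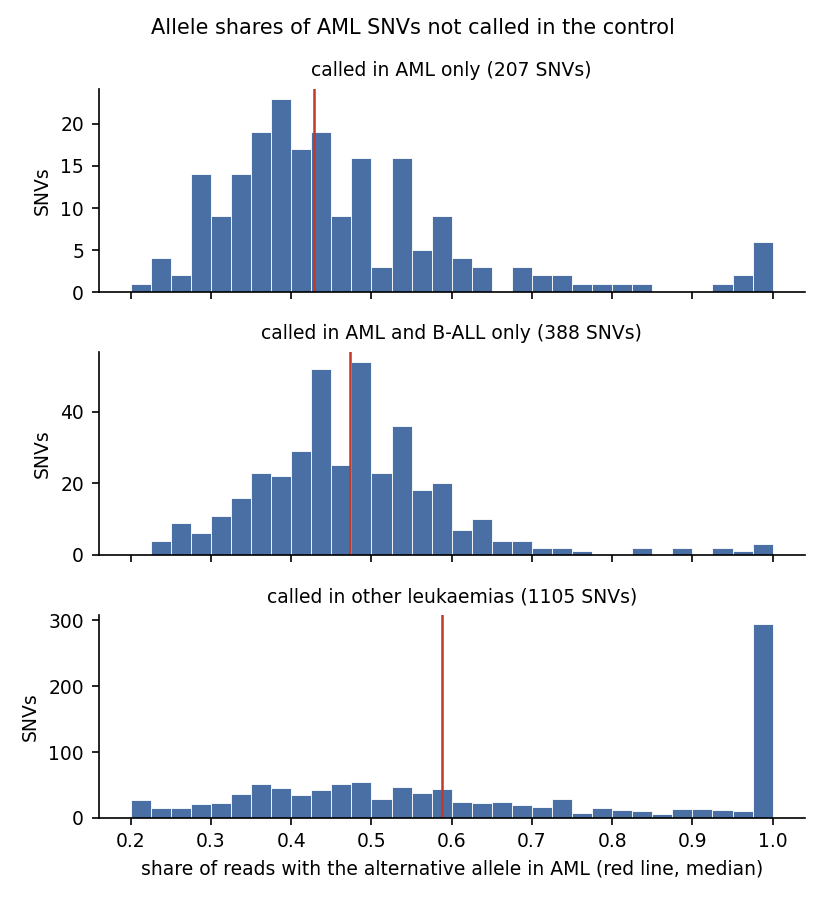
Histograms of the share of alternative reads in AML (x axis) for SNVs not called in the control, counted on the y axis, in 3 classes by the other leukaemias that called them; the red line is the median. The 388 SNVs of AML and B-ALL alone centre on 0.473, while 293 of the 1105 SNVs called in other leukaemias stand at a share of 1.

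Of the 388 SNVs called in AML and B-ALL alone, 380 were called heterozygous in both, at median depths of 26 and 24 reads. The member rule filters these sites on AML alone, which favours a higher share in AML, so shares were also compared with the rule applied to both libraries. The 310 SNVs that passed in both had a median share of 0.468 in AML and 0.396 in B-ALL, and AML was higher at 224 of them (72.3%, 66.9 to 77.2). With the rule applied to AML alone AML was higher at 295 of 388 sites (76.0%), and with the rule applied to B-ALL alone at 65.7% (60.4 to 70.7) of 347 sites. SNV shares were thus lower in B-ALL under all 3 choices. INDELs did not keep 1 direction. AML was higher at 576 of 858 (67.1%) with the rule on AML, at 217 of 372 (58.3%) with the rule on both and at 294 of 685 (42.9%, 39.2 to 46.7) with the rule on B-ALL. Of the 858 INDELs, 712 were called heterozygous in both. Whether the AML and the B-ALL cells came from 1 animal or from related animals is not given in the labels.

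**Figure D2:**
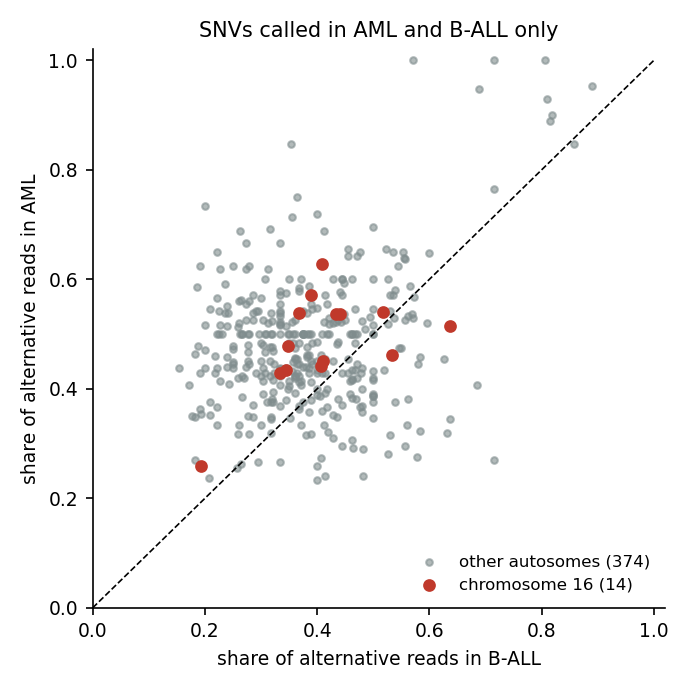
Share of alternative reads in AML (y axis) against B-ALL (x axis) at each SNV called in these 2 libraries alone; red points lie on chromosome 16 and the dashed line marks equal shares. Of the 388 points, 295 lie above the line, a direction that the filter on AML alone favours; 224 of the 310 that passed the rule in both libraries do too.

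Base changes, read on the strand with the pyrimidine, differed between the classes. C>T changes made up 177 of the 388 SNVs of AML and B-ALL alone (45.6%, 40.6 to 50.7). In the SNVs of AML alone they made up 59 of 207 (28.5%, 22.5 to 35.2), and these intervals do not overlap. The control SNVs that no other library called had 86 of 193 (44.6%, 37.4 to 51.9). SNVs of AML that the control called too had 26.6% C>T and 29.0% T>C. T>G changes were 30 of 207 (14.5%) in AML alone and 31 of 388 (7.99%) in the class shared with B-ALL. Neighbouring SNVs are not independent, so these intervals are too narrow where SNVs lie close together.

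A further 121 SNV members were called in AML, B-ALL and T-ALL and in no other library, and 75 of them (62.0%) lay in LTR elements. LTR elements are copies or remnants of retroviruses in the genome. Among the 388 SNVs of AML and B-ALL alone, 52 (13.4%) lay in LTR elements. Single elements held many of these SNVs. The elements with 8 or more SNV members were picked out after their values were seen, and there were 4 of them with 83 members in all.

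The element with the most lay on chromosome 8, where 40 SNV members spanned 7.42 kb from 123426442 to 123433862 (mm10). Their depth in AML ran from 41 to 85 reads with a median of 60.5, against a median of 26 over all SNV members. Their allele share ran from 0.256 to 0.624 with a median of 0.421. B-ALL called 40 of the 40 and T-ALL 37. The control, AUL, M-MPAL and T-MPAL called 0. At any depth and quality the span held 50 SNV calls in AML (median depth 57), 48 in B-ALL (52) and 42 in T-ALL (68.5), and 0 in each of the other 4 libraries. On the plus strand 27 of the 40 changes were C to T and 3 were G to A (75% together), and 8 were listed in dbSNP. No copy number row of AML lay in that megabase.

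In the other 3 elements every library had SNV calls, but the members were called mostly in AML, B-ALL and T-ALL. On chromosome 6, 19 members from 68246811 to 68250385 lay within the immunoglobulin kappa light chain locus Igk, at a median depth of 71 reads and a median share of 0.581. B-ALL called 19 of them, T-ALL 14 and the other 4 libraries 0. On chromosome 12, 16 members from 92883948 to 92890983 had a median depth of 54.5 reads. B-ALL called 14, T-ALL 13, T-MPAL 2, and AUL and M-MPAL 1 each. On chromosome 4, 8 members from 46577167 to 46583646 were called 8 times in B-ALL, 7 times in T-ALL and in no other library. In these 3 spans the control had 16, 24 and 20 SNV calls of its own, all at other alleles than the members. Median mapping quality was 44 at the chromosome 8 members and 34, 37 and 33.5 at the others, against 45 over all SNV members. The part of mapping and of extra copies in these calls was not tested.

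**Figure D3:**
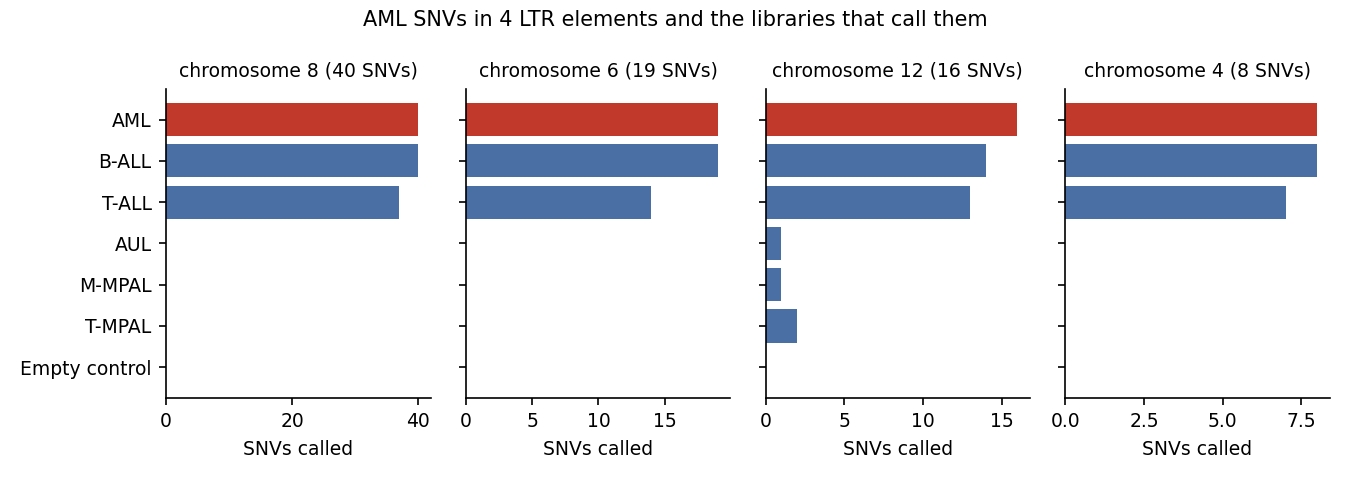
Number of AML SNV members in each of 4 LTR elements (x axis) that each library called (y axis, 7 libraries). The rule sets AML to all members and the control to none; of the other 5 libraries B-ALL called 81 and T-ALL 71 of the 83 members, and AUL, M-MPAL and T-MPAL from 1 to 2.

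The megabase of chromosome 1 from 88000001 held 102 SNV members at a median depth of 119.5 reads, with 91 in dbSNP, and the control had 45 SNVs there without an AML call. It holds the Ugt1a glucuronosyltransferase genes and Mroh2a. FREEC called 11 copies over the 64 kb from 88212001 in AML and 12 in the control, and SNV calls there had a median depth of 131 to 167 reads in the 7 libraries. The megabase of chromosome 15 from 103000001 around Mucl1 held 48 members, against 1 control SNV by the same rule, at a median depth of 40 reads, and each of the other leukaemias called from 39 to 46 of them. On chromosome 8 the megabase from 99000001 held 31 members, all in A330008L17Rik, at a median depth of 39 reads, of which T-MPAL called 31, B-ALL and T-ALL 30 each, AUL 26 and M-MPAL 13. Leaving out the Ugt1a to Mroh2a gain left 1633 SNV members.

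AML had 17 protein-altering members (9.90 to 27.2), with 16 missense SNVs, 1 splicing SNV and 0 INDELs. The count was 33 with a quality of at least 20, 35 with segmental duplications kept and 11 with a quality of at least 200. A further 5 exonic SNVs and 1 exonic INDEL, in Peg10, Hoxa13 and Muc6, had no known effect in the annotation, and each was also called in 4 or 5 other leukaemias. The control had 9 (4.12 to 17.1) by the same rule, and both intervals overlap. The AML set was also the larger one. Missense SNVs were 0.941% of the AML SNV members (16) and 0.999% of the control SNVs by the same rule (7), so the shares were alike. Of the 17, 5 were called in AML alone, 5 in AML and B-ALL alone and 7 in other leukaemias as well. Of genes on the 8 lists described below, 1 was among them.

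That gene was Smarca4, which encodes BRG1, the ATPase that powers the SWI/SNF chromatin remodelling complex. AML had the missense change D1225H in exon 26 at chromosome 9, position 21677576 (mm10), on 13 of 28 reads (46.4%, 27.5 to 66.1), with a quality of 222 and outside any repeat. No other library had a call there, the control included, and dbSNP did not list it. It was the only protein-altering member among the 27 SWI/SNF genes, where the control had 0.

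The other missense members called in AML alone were outside the lists. Rgsl1, a relative of the regulators of G-protein signalling, had D581N on 14 of 23 reads (60.9%, 38.5 to 80.3) at chromosome 1, position 153817588. Pcdhb16, a protocadherin of the beta cluster, had A678S on 12 of 27 reads (44.4%, 25.5 to 64.7) at chromosome 18, position 37480020. AI314180, a proteasome adaptor gene, had V1193I on 9 of 22 reads (40.9%, 20.7 to 63.6) at chromosome 4, position 58821422. The fifth lay in a predicted gene. Their shares all had intervals that include 0.5.

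Missense members of AML and B-ALL alone lay in 5 genes. Amz1, a metallopeptidase gene, had E78Q at chromosome 5, position 140741515, on 36 of 38 reads in AML (94.7%, 82.3 to 99.4) and 11 of 16 in B-ALL. It was the only one of them close to homozygous. Krtap15, a keratin-associated protein gene on chromosome 16, had R78W on 18 of 40 reads in AML and 16 of 39 in B-ALL. Slc45a4, a solute carrier gene, had R112C on 14 of 32 and 7 of 23 reads. Csmd3 had H3624N on 10 of 16 and 5 of 18 reads. Pik3c2b, a class II phosphoinositide 3-kinase gene, had L1155V on 8 of 23 and 7 of 22 reads.

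Others were called in the MPAL fractions as well. Gcsam, a signalling adaptor of germinal centre lymphocytes on chromosome 16, had D147N on 23 of 40 reads in AML, 16 of 31 in B-ALL, 12 of 28 in M-MPAL and 20 of 30 in T-MPAL. Hmgb2, a chromatin protein gene, had P175S on 12 of 28 reads in AML, 5 of 22 in B-ALL, 15 of 31 in M-MPAL and 13 of 26 in T-MPAL. Both changes had no call in the control, T-ALL or AUL and were not listed in dbSNP. Muc4, a mucin gene on chromosome 16, had E1864Q on 14 of 14 reads in AML, 5 of 5 in M-MPAL and 9 of 9 in T-MPAL, and dbSNP lists it. The last 4 lay in the Ugt1a and Mroh2a gain, at 109 to 170 reads. They were Y232F in the bilirubin-conjugating enzyme gene Ugt1a1 (55 of 155 reads), a splicing change of the Ugt1a genes (51 of 170), and A685D (26 of 121) and S750L (52 of 109) in Mroh2a. At the high copy number called there, a share of reads does not translate into 1 of 2 alleles.

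Of the 17 protein-altering members, the one in Smarca4 was the only one in a list gene. The share of all genes that held a member was not worked out, so the list counts show neither an excess nor a lack. The list genes Bcor, Gata1, Huwe1, Phf6 and Stag2 lie on the X chromosome, outside the member rule. The 38 AML genes held 3 SNV members in 2 genes and 10 INDEL members in 4, none of them protein-altering, while the control had 0 SNVs and 10 INDELs in 8 genes by the same rule. The 36 DNA repair genes held 1 SNV and 5 INDELs, against 0 and 3 in the control. The 23 Myc network genes held 0 SNVs and 1 INDEL, against 0 and 6. The 29 blood lineage transcription factor genes held 1 SNV and 16 INDELs in 5 genes, against 0 and 8 in 5. The 27 SWI/SNF genes held 1 SNV and 2 INDELs, against 0 and 5. The 15 myeloid marker genes held 1 INDEL, in an intron of the Mac1 subunit gene Itgb2, and the 14 lymphoid marker genes held 0 of either kind. Mycn itself had no call of any depth in AML or the control. The lists overlap, so their counts are not separate: Runx1 is on both the AML and the blood lineage list, and its INDEL members count in each. Runx1 and Erg also lie on chromosome 16, which held more INDEL members than the other autosomes relative to the control. Positions with 2 alternative alleles, as in Mecom, Wrn, Ebf1 and Ppm1d, count as 2 members. These lists were chosen with earlier results of these data known.

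The SNVs in list genes other than Smarca4 were intronic. Idh2, the mitochondrial isocitrate dehydrogenase mutated in some human AML, had one on 13 of 36 reads in AML alone (chromosome 7, position 80104226). Blm, a DNA helicase gene, had one on 8 of 21 reads, and Ebf1, a B-cell transcription factor gene, one on 6 of 17 reads that B-ALL called too. Smc3, of the cohesin ring, had 2 at 15 of 15 and 16 of 16 reads, both called in all 5 other leukaemias and listed in dbSNP.

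INDEL members lay overwhelmingly in short tandem repeats. Of the 6677, 5649 (84.6%) lay in simple repeats and 173 outside any annotated repeat. Control INDELs of the same rule had 3966 of 4520 (87.7%) in simple repeats. Changes of 2 bases were the most frequent, with 4126 (61.8%), followed by 4 bases with 1427 (21.4%), and 4196 (62.8%) were deletions. The class of AML and B-ALL alone had a larger share of 4-base changes, 279 of 858 (32.5%), and fewer deletions, 399 (46.5%). Median depth was 17 reads. Positions with 2 different alternative alleles fill 2 lines with 1 common read count, and 894 members came from such positions, so that 6425 distinct positions stood behind the 6677.

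Runx1, a transcription factor required for definitive blood formation and mutated in human AML, held the most INDEL members of any list gene. All 6 lay in introns and in dinucleotide tracts, within the chromosome 16 gain. The reference tracts are printed below as the files give them, on the plus strand, with 1 copy of the 2-base unit that AML lost (gained in the second) in capitals, to show how alike these sites are.
Runx1 chr16:92646489: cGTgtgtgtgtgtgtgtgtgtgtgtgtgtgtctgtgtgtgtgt
Runx1 chr16:92648142: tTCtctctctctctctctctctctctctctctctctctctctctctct
Runx1 chr16:92753069: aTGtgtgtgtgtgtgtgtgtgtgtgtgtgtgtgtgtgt
Runx1 chr16:92758465: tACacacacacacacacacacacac
Runx1 chr16:92776732: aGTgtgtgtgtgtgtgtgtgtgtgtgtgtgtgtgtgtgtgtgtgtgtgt
Runx1 chr16:92804963: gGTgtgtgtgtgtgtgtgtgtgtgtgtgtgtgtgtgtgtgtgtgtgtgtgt
In that order AML had the change on 11 of 41, 14 of 26, 8 of 22, 5 of 15, 11 of 25 and 12 of 28 reads. The change at 92648142 was shared with B-ALL (12 of 25 reads), that at 92753069 with T-ALL (6 of 18) and that at 92776732 with M-MPAL (3 of 13) and T-MPAL (3 of 12). The other 3 were called in AML alone, and the control had no call at any of the 6 positions. The tracts were 25 to 51 bases long. Erg, another transcription factor gene of blood stem cells on chromosome 16, held 3 intronic INDEL members, also in simple repeats.

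Of the 173 INDEL members outside repeats, 30 were called in AML alone and 26 in AML and B-ALL alone. The control had 65 outside repeats by the same rule. An insertion of 16 bases on chromosome 13, called in AML alone on 28 of 40 reads (70.0%, 53.5 to 83.4), lay 188 bases before the start of 3110070M22Rik, on that gene's minus strand. Its first 11 bases repeat those that follow the site. The plus strand around it (RefSeq, GRCm38.p6, chr13:119488553-119488602) and the inserted bases are shown with the repeated stretch in capitals.
3110070M22Rik reference: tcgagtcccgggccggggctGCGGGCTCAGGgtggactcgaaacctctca
3110070M22Rik inserted: GCGGGCTCAGGaggag
Other AML-only insertions outside repeats lay in introns of Rab3b (19 of 29 reads) and Iqsec1 (15 of 17).

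RefSeq's 32851 promoter windows, from 250 bases before each start, held 10 SNV members (0.588%, 0.282 to 1.08) and 3 INDEL members (0.0449%, 0.00927 to 0.131). Control calls by the same rule had 5 SNVs (0.713%) and 7 INDELs (0.155%) there, with overlapping intervals. AML calls that the control had too held 35 SNVs (0.441%) and 42 INDELs (0.519%, 0.374 to 0.701). Those in Cnep1r1, Kif20b and Parp2, shared with B-ALL alone, are printed on the strand of the gene, 5′ to 3′, from RefSeq (GRCm38.p6), with each changed base in capitals.
Cnep1r1 chr8:88118615-88118655: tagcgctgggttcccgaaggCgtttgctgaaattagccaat
Kif20b chr19:34922195-34922235: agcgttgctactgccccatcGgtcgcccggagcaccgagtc
Parp2 chr14:50807683-50807738: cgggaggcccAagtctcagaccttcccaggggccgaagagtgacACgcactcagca
Cnep1r1, a regulatory subunit of a nuclear envelope phosphatase, had its change 124 bases before the start on 16 of 33 reads. Kif20b, a kinesin of cell division, had its change 143 bases before the start on 12 of 27 reads. Both were called in AML and B-ALL alone and are not listed in dbSNP. Parp2, a poly(ADP-ribose) polymerase of DNA repair, had 3 changes 223, 189 and 188 bases before its start. They lay on 102 of 197, 96 of 184 and 94 of 180 reads, and dbSNP lists all of them. They fall inside Rpph1, the RNA component of ribonuclease P, which lies at 50807447 to 50807771. B-ALL called the same 3 at a median depth of 199 reads, and the control and the other 4 leukaemias had no call there. FREEC gave AML 4 copies of the 2 kb around them and gave no row there in the other 5 tables used.

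The hairpin of 1 microRNA held a member. Mir682, on chromosome 13, had a C-to-T change outside the mature part, shown in capitals in the RefSeq hairpin (chr13:75645046-75645141, plus strand).
Mir682: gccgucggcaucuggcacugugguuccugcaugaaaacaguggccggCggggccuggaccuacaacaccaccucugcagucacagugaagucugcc
AML had it on 9 of 37 reads, B-ALL on 7 of 30 and T-ALL on 74 of 94.

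Copy number was dominated by a gain of chromosome 16. FREEC, which calls copies from read depth in steps of 1 kb, listed 159 of the 246 AML rows there. They summed to 94.4 Mb, of which 154 rows and 94.4 Mb were at 3 copies, from 3252001 to 98059000. Gaps between the rows summed to 0.42 Mb. Of all 246 AML rows, 186 (75.6%) were covered by less than 50% in the control, and 154 of those lay on chromosome 16. The control covered 5 of the chromosome 16 rows, all short. B-ALL covered 126 of the 159, and both gains overlapped over 69.0 Mb.

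The variant tables gave a separate view of the depth. At sites called homozygous in AML and in the control, outside segmental duplications, AML had a median depth of 22 reads on chromosome 16 against 14 in the control (467 sites). The median ratio there was 1.46 times that of the other autosomes, close to the 1.5 that 3 copies against 2 give. On the other 18 autosomes it lay between 0.958 and 1.12. B-ALL reached 1.33 on chromosome 16 and 0.656 on chromosome 19. Along chromosome 16, windows of 10 Mb had ratios from 1.28 (28 sites) to 1.8 (35 sites) in AML, all above the whole-chromosome values of the other autosomes. Windows of the other autosomes were not worked out, so the spread of windows of this size is not known. In the window from 70000001, B-ALL had rows over 2.79 Mb, yet its depth ratio was 1.65 (31 sites), while AML had rows over 9.93 Mb.

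**Figure D4:**
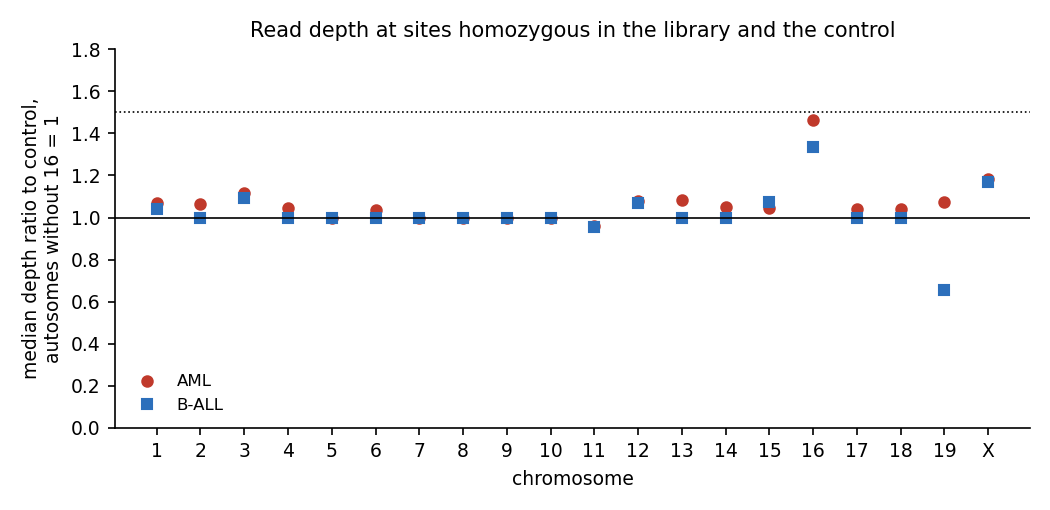
Median ratio of read depth to the control at sites called homozygous in both libraries (y axis, scaled to the median of the autosomes without chromosome 16), by chromosome (x axis), for AML and B-ALL; the dotted line marks 1.5. AML stands at 1.46 on chromosome 16 and B-ALL at 1.33, while B-ALL falls to 0.656 on chromosome 19.

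The copy number table of AML ends on chromosome 17 at 39849000, without a final line break and with no row on chromosomes 18, 19 and X, where the control table has 10, 14 and 20. The table therefore gives no account of the rest of the genome. At homozygous sites the depth ratio of AML was 1.08 on chromosome 17 beyond that point (280 sites), 1.04 on chromosome 18 (417 sites) and 1.07 on chromosome 19 (321 sites), within the range of the other autosomes. On the X chromosome it was 1.18 in AML, 1.17 in B-ALL, 1.2 in T-ALL and 1.125 in AUL.

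The gain ran from 3252001 to 98059000 of chromosome 16 with gaps of 0.42 Mb in all, so nearly any gene of that chromosome lies in it. The 22 listed genes of chromosome 16 all did, which does not set them apart from its other genes. Among them were the blood stem cell factors Runx1 and Erg, the acetyltransferase gene Crebbp, the DNA repair kinase gene Prkdc, the interferon receptor genes Ifnar1 and Ifngr2, the cytokine signal inhibitor Socs1, and Usp7. None of the other list genes lay in an AML copy number row, and no list gene lay in a loss.

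More INDELs lay on the gained chromosome. Chromosome 16 held 507 AML INDEL members and 134 control INDELs of the same rule, a ratio of 3.78, while on the other autosomes this ratio ran from 1.11 to 1.74. The share of members on chromosome 16 was 7.59% (6.97 to 8.25) in AML and 2.96% (2.49 to 3.50) in the control. With at least 5 reads the shares were 6.91% and 3.29%, and with at least 20 reads 12.3% and 3.04%. B-ALL had 7.35% by the same rule. The median depth of these members was 21 reads on chromosome 16 against 16 or 17 on every other autosome, and the part of depth in passing the rules was not tested. SNV members showed a smaller difference, with 4.41% on chromosome 16 in AML and 3.28% in the control, 75 and 23 SNVs. The intervals of both shares overlap. The ratio of AML to control SNVs was 3.26 on chromosome 16. On the other autosomes it ran from 1.37 (chromosome 13) to 5.43 (chromosome 8), so chromosome 16 did not stand out for SNVs. INDELs without chromosome 16 numbered 6170.

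**Figure D5:**
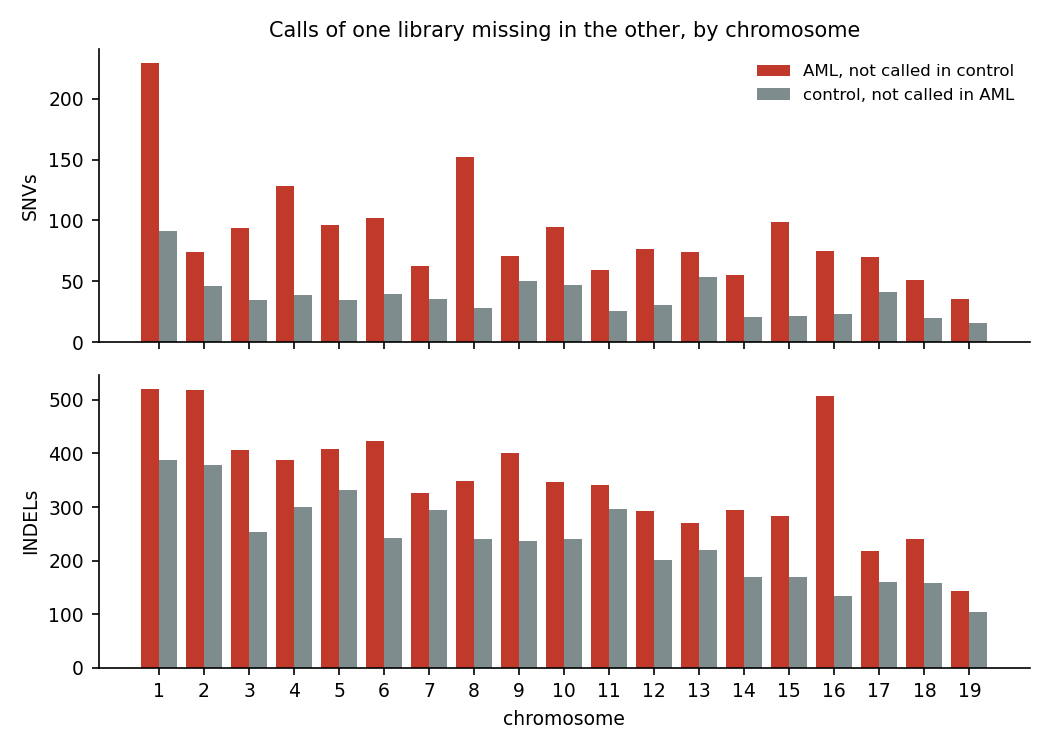
Number of calls (y axis) by chromosome (x axis) that passed the rules in AML and had no control call (red), and the reverse (grey), for SNVs above and INDELs below. INDELs of AML reach 507 on chromosome 16 against 134 in the control.

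Allele shares on the gained chromosome differed by class, with a median of 0.629 over all 75 SNV members. The 14 SNVs of AML and B-ALL alone on chromosome 16 had a median share of 0.496 (quartiles 0.444 and 0.538) at a median depth of 31.5 reads, and 12 of them lay between 0.4 and 0.6. On the other autosomes that class had a median of 0.471, with 236 of 374 in the same band. An allele on 1 or 2 of 3 copies in every cell would give 0.333 or 0.667. The 7 SNVs of AML alone had shares from 0.410 to 0.724. The 54 SNVs called in other leukaemias too had a median share of 1 and 29 of them lay at 0.9 or above.

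Outside chromosome 16, most AML copy number rows were shared. Of 87 rows there, 55 were covered by at least 50% in the control and 62 in B-ALL, and 37 in all 5 other tables used. The remaining 32 (36.8%) were not covered in the control, of which 16 were covered in B-ALL and 7 in none of the 5 other tables. At least 50 kb long and not covered in the control were 3 rows, described next.

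The single loss was in Ptprg, a receptor-type tyrosine phosphatase gene, to 1 copy over 74 kb (chromosome 14, 11761001 to 11835000). No other table had a row there. The 4 INDEL calls of AML in that stretch had a median depth of 9.5 reads, against 19 in the control and 13 to 17.5 in the other leukaemias. AML had no SNV call in it. Parm1, a mucin-like membrane protein gene, lay in a gain to 4 copies over 101 kb (chromosome 5, 91578001 to 91679000), where B-ALL had 3 copies and the other tables no row. INDEL calls there had a median depth of 30 reads in AML, 26 in B-ALL and 16 to 22 in the other libraries. The gain to 3 copies over 86 kb in A330008L17Rik (chromosome 8, 99728001 to 99814000) was covered in T-MPAL, and the row next to it was covered in the control.

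Shorter rows that no other table covered included a gain to 3 copies over 40 kb with Ybx1, a Y-box RNA- and DNA-binding protein gene, and Ppih, a cyclophilin gene of the spliceosome (chromosome 4, 119272001 to 119312000), with a further 2 kb row beside it. Cdk8, the Mediator kinase gene, had a 3 kb row at 28 copies (chromosome 5, 146259001 to 146262000). The variant tables did not set AML apart there: SNV calls in these 3 kb had a median depth of 436 reads in AML, 769 in the control and 248.5 to 778 in the other leukaemias. The same tables gave no SNV or INDEL call of AML in the Ybx1 and Ppih rows.

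The antigen receptor loci, which lymphocytes rearrange as they mature, showed no called loss in AML. FREEC listed no loss row at Igh, Igk, Igl, Trb, Tra/Trd or Trg, and the light chain locus Igl lay in the chromosome 16 gain. Igk held 23 AML SNV members against 3 control SNVs by the same rule, 19 of them in the LTR element described above. Igh held 2 SNV and 7 INDEL members, against 1 and 1 in the control. Trb held 1 of each, Tra/Trd 2 INDELs and Trg none.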

How the data were processed

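DNA libraries of AML and the empty control were compared, with 1 library per group, and the other 5 leukaemia libraries served to flag recurrent calls. Reads were aligned with BWA to mm10, per the submitters' processing notes, with no version given. SNVs and INDELs were called with samtools, copy number with FREEC, and annotated with ANNOVAR, per the file headers and names. Each call in the deposited variant tables has a quality score on the Phred scale, a depth and a count of alternative reads. Copy number is deposited by the authors as a whole number of copies, 2 being normal. For caller settings and filters nothing is given in the sources used here. AUL's copy number table breaks off within a line and was left out. The 6 samples on integration sites are not analysed here.

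The members and gene lists were chosen with earlier results of these data known. A copy number row counted as present in another library when rows of the same direction covered at least 0.5 of it. Named genes are list genes with a protein-altering member or inside a copy number row, genes with a stop, splicing or frame-changing member, the 15 genes whose missense SNVs had the most alternative reads, and genes of AML rows from 50 kb to 5 Mb that the control did not cover. Olfactory, vomeronasal, Zfp, Gm and Rik genes were counted and named only where the description turns on them. Genes with non-coding members or exonic members of unknown effect, short rows and the dense regions were named after their values were seen. Where several transcripts are annotated, the protein change with the farthest position is given. Copy number starts were raised by 1 base. Gene spans, promoters and the hairpin came from RefSeq tables of GRCm38.p6.

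Tables were handled with pandas 2.3.3 and numpy 2.4.6 in Python 3.11.15, intervals came from scipy 1.17.1 and plots from matplotlib 3.10.9. The code of the member rule was run on the AML calls themselves, with the same calls less 200 passing and some failing ones as a stand-in control. It returned 200 of 200 SNVs of 43570 calls and 200 of 200 INDELs of 129084, with 0 wrong. That outcome follows from the rule, so it checks the code alone and not the accuracy against the real control.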

Additional observations from a re-analysis of the deposited data

Results flagged for a closer look

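The X chromosome lies outside the member rule, and AML exceeded the control there. By the same thresholds AML had 127 SNVs on it (106 to 151) without a control call, 101 of which B-ALL called too, and the control had 11 (5.49 to 19.7) without an AML call. For INDELs the counts were 351 (315 to 390) and 129 (108 to 153), with 155 of the AML calls in B-ALL. At sites homozygous in both, the median depth on X was 15 reads in AML and 11 in the control. Scaled to the other autosomes, the depth ratio to the control on X was 1.18 in AML and from 1.125 to 1.2 in B-ALL, T-ALL and AUL. The part of depth in the call counts was not tested, nor that of calls under 5 reads, which AML keeps and the control does not. No label states which sex was used.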

How the results depend on the processing

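Of 80 alternatives run over 10 results, 50 stayed within the limits set (1.5 times for counts and lengths, the 95% interval for shares, medians and ratios), 29 moved and 1 reversed. AML had the higher allele share at 76.0% of SNVs and 67.1% of INDELs called in AML and B-ALL alone; with the rule applied to B-ALL in place of AML this was 65.7% and 42.9%, which turned the INDEL direction, and with the rule applied to both libraries 72.3% and 58.3%. With a quality of at least 20 there were 4372 SNVs, 52102 INDELs and 33 protein-altering members, with 49.9% of SNVs in B-ALL, a ratio to the control of 1.81 and a median allele share outside chromosome 16 of 0.385 in place of 0.517. With at least 200 these were 757, 1223, 11, 87.7%, 3.92 and 0.620. Keeping segmental duplications gave 3144 SNVs, 35 protein-altering members and a median share of 0.462. Without repeats there were 729 SNVs, 173 INDELs and a median share of 0.494. Without dbSNP variants there were 914 SNVs, a ratio of 2.05 and a median of 0.459. An allele share of at least 0.3 gave a ratio of 2.67 and a median of 0.530. The median was 0.594 with at least 5 reads and 0.469 with at least 20, where INDELs numbered 2330. Of copy number rows of at least 50 kb, 109 were not in the control. Alternatives that left out the Ugt1a to Mroh2a gain, the LTR elements or chromosome 16, counted positions, or removed shallow B-ALL calls stayed within the limits; these and the changes of library above were chosen after seeing the data. No paired analysis was possible because each group had 1 library. The cause of each change was not tested, beyond fewer or more calls passing. Depth limits what a missing control call shows, since the tables give the control's depth only at its own calls.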

Other observations

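Synonymous SNV members numbered 10, of which 5 lay in Mroh2a at high depth. Of the rest, those in the histone genes Hist2h2bb (V40V, 9 of 33 reads) and Hist1h4i (I35I, 13 of 40 reads) were also called in other leukaemias. Itpr2, an intracellular calcium channel gene (L2266L, 6 of 25 reads), and Atp6v0a1, a proton pump subunit gene (D273D, 7 of 27 reads), had changes called in AML and B-ALL alone. The control's own protein-altering calls by the same rule included Cntrl (L2305R, 21 of 30 reads) and the stop codon S80X in Dhrs7 (7 of 27 reads). None of the 9 lay in a list gene.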
